A study of Mus musculus with 6 samples.

Results

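The transcripts described here are 10 genes of bile acid synthesis and of its control by the farnesoid X receptor (FXR) in mouse liver. They are the synthesis enzymes Cyp7a1, Cyp8b1, Cyp27a1, Cyp7b1, Hsd3b7 and Akr1d1, the receptor gene Nr1h4, its target Nr0b2, and the receptor genes Fgfr4 and Klb. Genes were taken by symbol, with the probe set of highest mean where a gene has several, and the 10 were set among 19938 genes that a probe set with 1 symbol represents. Each of the 10 had 1 such probe set, and all 10 were above the floor of the table on all 6 arrays. Total liver RNA came from 3 TLR3-/- mice and 3 TLR3wt mice, all untreated, 3 months old and bred in house under pathogen-free conditions, with 1 oligonucleotide array per mouse. The series describes both groups as C57Bl/6, and how the Tlr3 allele was made, the sex of the mice, their feeding state and the hour at which livers were taken are not given in the sources used here.

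Bile acids are made from cholesterol in hepatocytes. The classic pathway starts with Cyp7a1, which sets the rate, and the alternative pathway starts with Cyp27a1 and continues with Cyp7b1. Bile acids activate FXR, the product of Nr1h4, which induces Nr0b2, the gene of the corepressor SHP that acts against Cyp7a1 and Cyp8b1. In the mouse intestine FXR also induces the hormone FGF15, which reaches the liver and represses Cyp7a1 through the receptor FGFR4 and its partner beta-Klotho, the product of Klb.

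Between 15081 and 15226 probe sets per array stood above 5, the lowest value of the table, which is on the log2 scale of RMA signal. Pairs of arrays correlated at 0.984 to 0.991 inside a group and at 0.980 to 0.988 across groups. TLR3wt replicate 3 stood apart from its group on the second principal component (17.6, against -14.5 and -11.1 in TLR3wt replicates 1 and 2). Tlr3 itself was at 5 on all 6 arrays, so the array gave no check of the genotype labels. Hepatocyte markers were high in all 6 livers, with Alb at 13.09, 13.08 and 13.02 in TLR3-/- livers and 13.09, 13.07 and 13.07 in TLR3wt livers.

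Cyp7a1 had lower signal in every TLR3-/- liver than in any TLR3wt liver, and Cyp7b1, Hsd3b7 and Nr0b2 had higher signal in every TLR3-/- liver. None of the 10 genes passed the test over the whole array. In the limma fit 31 of 16639 tested probe sets passed an adjusted p of 0.05, or 0.186%, and 0 of the 10 genes did, with adjusted p between 0.156 and 0.981. At an unadjusted p under 0.05 there were 4 of the 10, where 14.5% of all tested probe sets met that limit. Groups did not overlap in 4 of the 10, 3 higher and 1 lower, where 20.1% of tested probe sets had groups apart (13.0% higher, 7.04% lower). The TLR3-/- mean was higher for 9 of the 10 genes, with a median log2 difference of 0.12, against 58.8% of tested probe sets and a median of 0.03. Among the 10347 genes tested by 1 probe set each, 15.7% had an unadjusted limma p under 0.05. Of those genes 15.1% lay apart and higher, 7.62% lay apart and lower, and 60.9% had a higher TLR3-/- mean. RNA was taken from whole liver, so fewer cells of a type and less RNA per cell cannot be told apart.

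**Figure D1:**
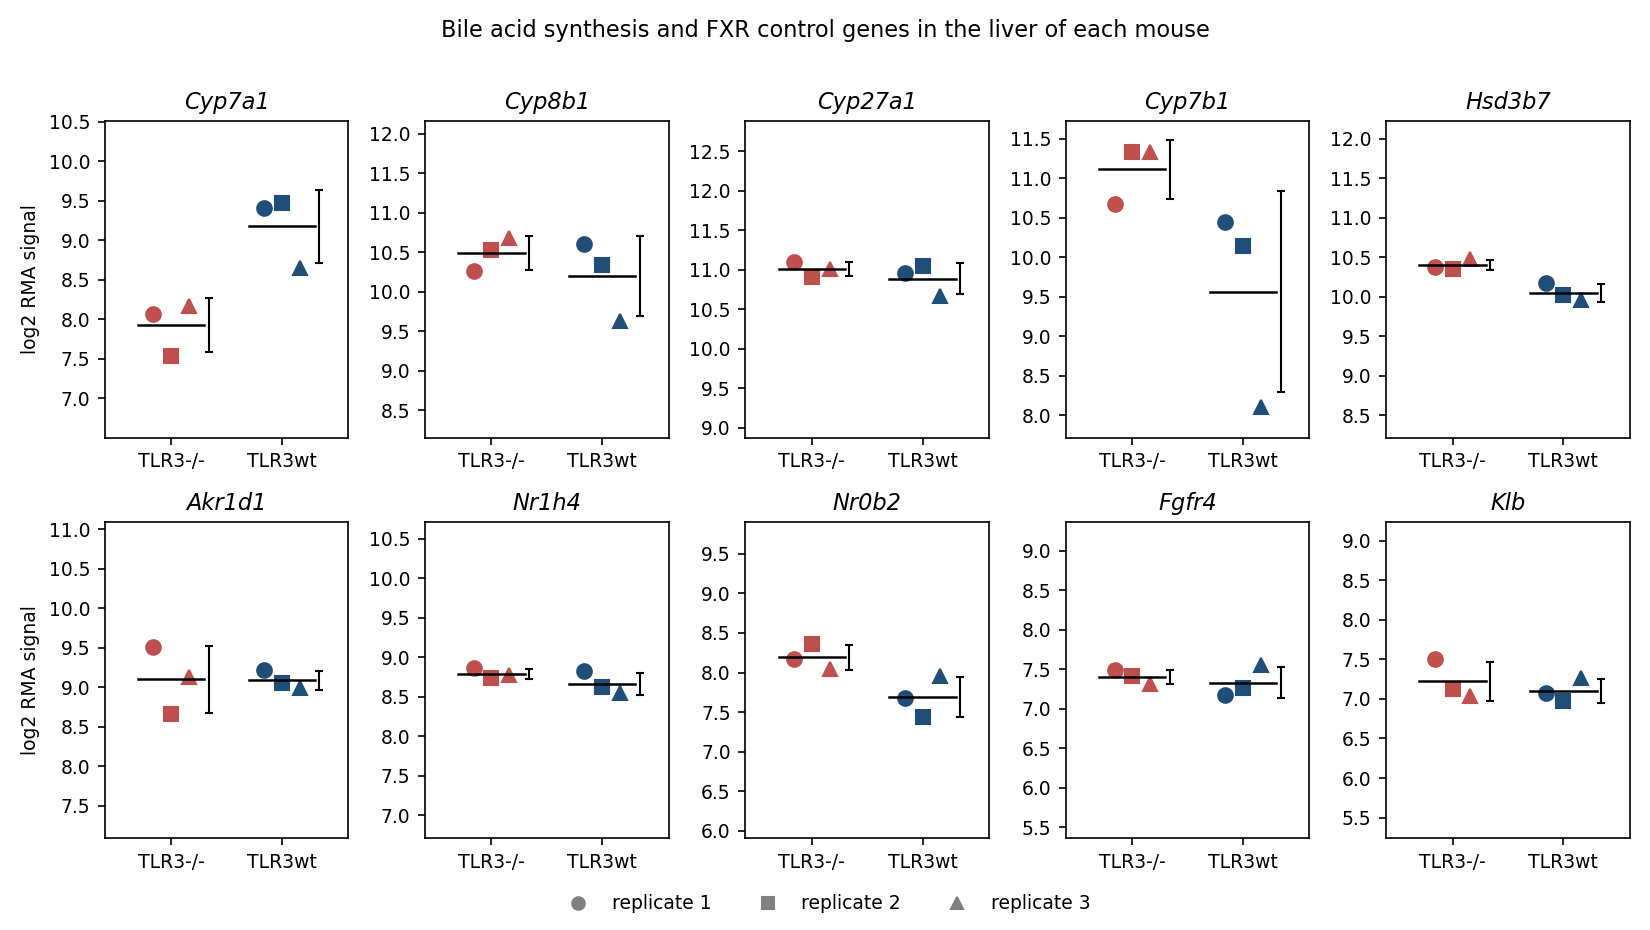
Log2 RMA signal of each gene in the 3 TLR3-/- livers (left of each panel) and the 3 TLR3wt livers (right), with the symbol giving the replicate number, a horizontal bar for the mean and a vertical bar for the SD. All panels span the same range on the log2 scale; Cyp7a1 lies at 7.54 to 8.17 in TLR3-/- and 8.65 to 9.47 in TLR3wt livers, and TLR3wt replicate 3 lies at 8.11 for Cyp7b1.

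The enzymes of the classic pathway gave unlike values. Cyp7a1 (probe set 10511375, chromosome 4 in the reference assembly GRCm38.p6) had a log2 signal of 8.07, 7.54 and 8.17 in TLR3-/- livers, against 9.41, 9.47 and 8.65 in TLR3wt livers. The lowest TLR3wt liver, replicate 3, was still above the highest TLR3-/- liver. The means were 7.93 ± 0.34 in TLR3-/- and 9.18 ± 0.46 in TLR3wt livers (SD, n = 3 each), a log2 difference of -1.25 with a 95% interval of -1.90 to -0.59, which corresponds to 2.37-fold lower signal (limma adjusted p = 0.156). Without TLR3wt replicate 3 the difference was -1.51 (limma adjusted p = 0.115). Cyp8b1 (10597875), the sterol hydroxylase that directs the pathway to cholic acid and is, like Cyp7a1, repressed by SHP, had 10.26, 10.53 and 10.68 in TLR3-/- livers, against 10.61, 10.34 and 9.63 in TLR3wt livers. These groups overlapped, and TLR3wt replicate 3 was the lowest of the 6 livers. The log2 difference was 0.30 (95% interval -0.33 to 0.93, limma adjusted p = 0.659), and 0.01 without that liver. The interval for Cyp8b1 does not reach the size of the Cyp7a1 estimate of -1.25, whose own interval extends to -0.59. The contrast between these genes was not tested.

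The alternative pathway held the member with the widest spread. Cyp27a1 (10347481), the mitochondrial sterol hydroxylase that also oxidises the side chain in the classic pathway, had 11.09, 10.91 and 11.01 in TLR3-/- livers, against 10.96, 11.04 and 10.66 in TLR3wt livers. The groups overlapped, with a log2 difference of 0.11 (95% interval -0.16 to 0.38), and of 0.00 without TLR3wt replicate 3. Cyp7b1 (10497381), the oxysterol hydroxylase that follows it, had 10.68, 11.33 and 11.33 in TLR3-/- livers, against 10.45, 10.14 and 8.11 in TLR3wt livers. All TLR3-/- livers were above all TLR3wt livers, and TLR3wt replicate 3 lay far below its 2 group mates. Means were 11.11 ± 0.38 in TLR3-/- and 9.57 ± 1.27 in TLR3wt livers (SD, n = 3 each), a log2 difference of 1.54 with a wide interval of 0.05 to 3.04, or 2.92-fold (limma adjusted p = 0.334). Without TLR3wt replicate 3 the fold was 1.76 and the groups stayed apart (limma adjusted p = 0.251).

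The enzymes that both pathways share differed in how closely the mice lay. Hsd3b7 (10557782), the dehydrogenase that acts on the sterol ring after its first hydroxylation, had 10.38, 10.35 and 10.48 in TLR3-/- livers, against 10.18, 10.02 and 9.96 in TLR3wt livers. The groups did not overlap and the spread in each was small, so a log2 difference of 0.35 had an interval of 0.17 to 0.54 (limma adjusted p = 0.158). Akr1d1 (10537306), the reductase that gives bile acids their bent ring system, had 9.51, 8.66 and 9.13 in TLR3-/- livers, against 9.22, 9.05 and 8.99 in TLR3wt livers. The 3 TLR3-/- livers enclosed the TLR3wt livers, and the log2 difference was 0.01 (95% interval -0.50 to 0.53); its sign turned when the arrays were centred on their medians (-0.02).

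Of FXR and its target, only the target had groups that did not overlap. Nr1h4 (10371784), the gene of FXR, had 8.86, 8.73 and 8.77 in TLR3-/- livers, against 8.82, 8.62 and 8.55 in TLR3wt livers. The groups overlapped, with a log2 difference of 0.12 (95% interval -0.09 to 0.33, limma adjusted p = 0.573). Nr0b2 (10508887), the gene of SHP, had 8.17, 8.36 and 8.05 in TLR3-/- livers, against 7.68, 7.44 and 7.95 in TLR3wt livers. All TLR3-/- livers were above all TLR3wt livers, and the gap between TLR3-/- replicate 3 and TLR3wt replicate 3 was 0.10. The means were 8.19 ± 0.16 in TLR3-/- and 7.69 ± 0.26 in TLR3wt livers (SD, n = 3 each), a log2 difference of 0.51 with an interval of 0.15 to 0.86, or 1.42-fold (limma adjusted p = 0.220). In TLR3-/- livers Nr0b2 lay higher and Cyp7a1 lower, neither passing the limma test, and the Cyp8b1 groups overlapped. The part of SHP in the values of Cyp7a1 and Cyp8b1 was not tested.

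The promoters of Nr0b2 and Cyp8b1 are shown because both genes are known targets of the nuclear receptor LRH-1, the product of Nr5a2, and that of Hsd3b7 because its groups did not overlap. Each sequence is the 250 bases before the gene's start in RefSeq (build GRCm38.p6), read along the gene's strand, at chr4:133553126-133553375 (plus strand) for Nr0b2, chr9:121916306-121916555 (minus strand) for Cyp8b1 and chr7:127800359-127800608 (plus strand) for Hsd3b7. Capitals mark CAAGGNC, the core of the LRH-1 element, searched on both strands as the only motif.
Nr0b2: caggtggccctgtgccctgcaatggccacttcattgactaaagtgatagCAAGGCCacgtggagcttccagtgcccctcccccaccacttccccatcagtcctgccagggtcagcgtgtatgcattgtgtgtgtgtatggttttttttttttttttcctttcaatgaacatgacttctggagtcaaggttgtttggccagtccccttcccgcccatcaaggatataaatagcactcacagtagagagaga
Cyp8b1: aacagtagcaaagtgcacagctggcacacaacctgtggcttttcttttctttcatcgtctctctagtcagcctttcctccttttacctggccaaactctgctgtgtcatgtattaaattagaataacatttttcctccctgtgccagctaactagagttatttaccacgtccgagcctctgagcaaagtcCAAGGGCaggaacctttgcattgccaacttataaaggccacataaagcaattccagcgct
Hsd3b7: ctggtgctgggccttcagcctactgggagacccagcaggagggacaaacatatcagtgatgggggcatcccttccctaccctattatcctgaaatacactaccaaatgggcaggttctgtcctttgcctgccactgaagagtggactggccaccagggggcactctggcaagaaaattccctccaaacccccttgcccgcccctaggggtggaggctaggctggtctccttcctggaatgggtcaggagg

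The match began 201 bases before the start of Nr0b2 and 60 bases before that of Cyp8b1. A window was at hand for 8 of the 10 genes, all but Cyp7a1 and Cyp7b1, and 3 held the motif, Fgfr4 (203 bases before its start, on the opposite strand) besides the pair shown. Of all 32851 windows of this length, 15.0% held it. Nr5a2, named here after its values were seen, had 7.99, 7.95 and 7.66 in TLR3-/- livers, against 7.59, 7.41 and 7.86 in TLR3wt livers, and the groups overlapped (log2 difference 0.25, 95% interval -0.10 to 0.59).

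The receptor complex for FGF15 gave no separation of the groups. Fgfr4 (10405380) had 7.49, 7.42 and 7.31 in TLR3-/- livers, against 7.17, 7.27 and 7.55 in TLR3wt livers, a log2 difference of 0.08 (95% interval -0.19 to 0.35). TLR3wt replicate 3 was the highest of the 6 livers here, and without it the groups did not overlap (0.19, limma adjusted p = 0.405). Klb (10522127) had 7.50, 7.13 and 7.04 in TLR3-/- livers, against 7.07, 6.97 and 7.26 in TLR3wt livers, a log2 difference of 0.12 (95% interval -0.22 to 0.47). TLR3-/- replicate 1 was the highest, and without it the difference was -0.02. The intervals of both genes leave out any change as large as the estimate for Cyp7a1, and the contrast with Cyp7a1 was not tested.

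**Figure D2:**
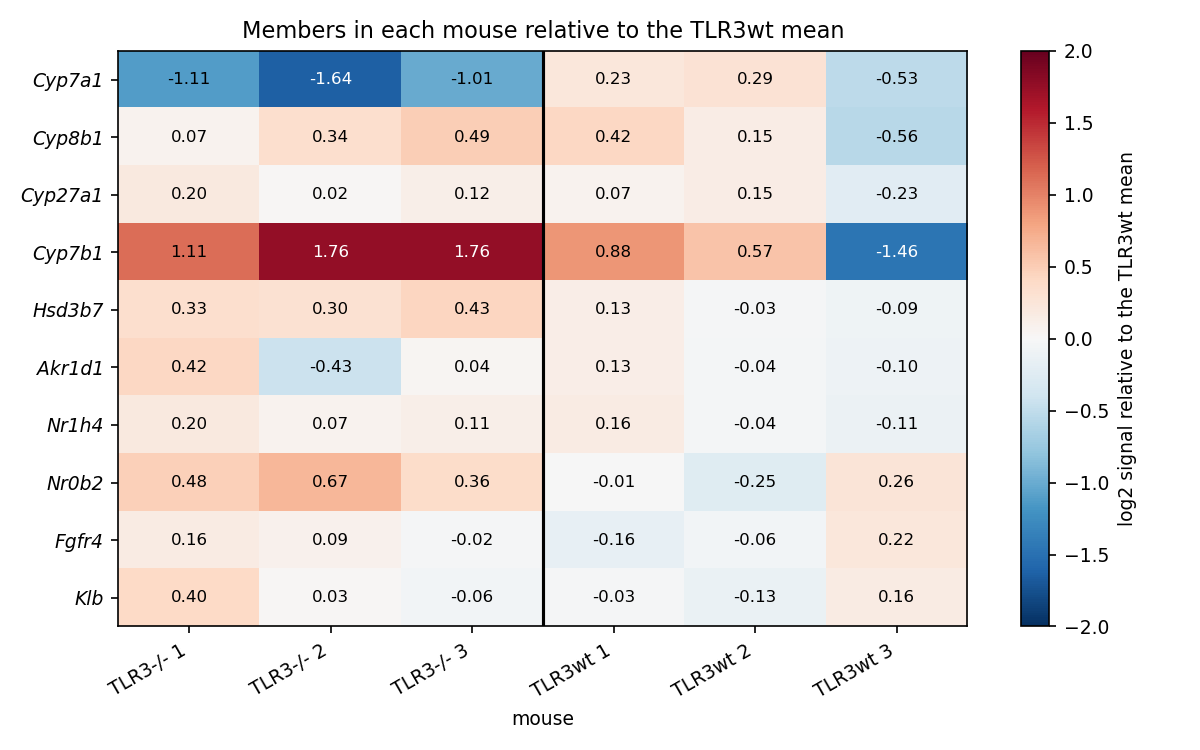
Log2 signal of each gene in each mouse, relative to the mean of the 3 TLR3wt mice, with red above and blue below that mean and the TLR3-/- mice left of the black line. Cyp7a1 is at -1.01 to -1.64 in the TLR3-/- livers, and the TLR3wt replicate 3 column is at -1.46 for Cyp7b1 and -0.56 for Cyp8b1.

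A second pattern ran through 1 mouse. TLR3wt replicate 3 was the lowest of the 6 livers for 5 of the 10 genes, namely Cyp8b1, Cyp27a1, Cyp7b1, Hsd3b7 and Nr1h4, where it was the lowest for 20.8% of tested probe sets. It was also the lowest of the TLR3wt livers for Cyp7a1 and Akr1d1. For Nr0b2, Fgfr4 and Klb it was the highest of the TLR3wt livers (7.95, 7.55 and 7.26). The same liver had the highest acute-phase signal, in a list put together after values had been seen. On the log2 scale and relative to the TLR3wt mean, 16 acute-phase genes averaged -0.94, -0.70 and -0.75 in the TLR3-/- livers, against -0.51, -0.29 and 0.80 in the TLR3wt livers, with replicate 3 last. The serum amyloid gene Saa3, Orm2, which encodes an acid glycoprotein, and Lcn2, which encodes an iron-scavenging lipocalin, had the smallest unadjusted p of the list, with log2 differences of -1.52, -1.30 and -2.58 and groups apart. Saa2, another serum amyloid gene, picked after its values were seen, had 6.53, 7.71 and 6.98 in TLR3-/- livers, against 7.72, 8.68 and 12.00 in TLR3wt livers. All 16 had a lower TLR3-/- mean (median log2 difference -0.32, 0 passed the limma test). The part of this response in the values of the bile acid genes was not tested. Without that mouse, 5 of the 10 genes had groups apart, where 29.7% of tested probe sets did.

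Further enzymes of the pathway, which modify oxysterols, shorten the side chain and conjugate the product, showed small differences apart from Cyp39a1. Of 15 genes, 14 were above the floor on an array, 11 with a higher and 3 with a lower TLR3-/- mean (median log2 difference 0.09), and 0 passed the limma test. Over all 10347 genes tested, 60.9% had a higher TLR3-/- mean, the median was 0.03 and 9 genes passed (0.087%). Cyp39a1, a hydroxylase of another oxysterol, had 7.32, 7.65 and 7.33 in TLR3-/- livers, against 7.77, 8.13 and 8.33 in TLR3wt livers. Its groups did not overlap (log2 difference -0.65, 95% interval -1.05 to -0.25, limma adjusted p = 0.186). Acot8, a peroxisomal thioesterase, had a log2 difference of 0.17 and Slc27a2, an acyl-CoA synthetase of sterol side chains, of 0.21. Baat, which joins bile acids to taurine and glycine, had 10.02, 10.07 and 10.10 in TLR3-/- livers, against 10.09, 10.02 and 9.81 in TLR3wt livers.

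Transporters held differences in both directions. Of 15 genes of bile acid and biliary lipid transport, 13 were above the floor, 8 with a higher and 5 with a lower TLR3-/- mean (median log2 difference 0.09), and 0 passed the limma test. The groups did not overlap in 5 genes that lay higher and 2 that lay lower in TLR3-/- livers, where 15.1% and 7.62% of all genes tested did so. Slc10a2, the sodium-dependent bile acid uptake transporter of ileum and bile ducts, had 6.16, 6.48 and 6.00 in TLR3-/- livers, against 6.83, 7.25 and 8.03 in TLR3wt livers (log2 difference -1.16, limma adjusted p = 0.196). Abcc4, a basolateral exporter, had 5.15, 5.18 and 5.20 in TLR3-/- livers, against 5.37, 5.56 and 5.52 in TLR3wt livers, all close to the floor. Abcg8, which with Abcg5 exports cholesterol into bile, had 8.90, 8.57 and 8.61 in TLR3-/- livers, against 8.27, 8.28 and 8.43 in TLR3wt livers (log2 difference 0.37, limma adjusted p = 0.212). The canalicular bile salt pump gene Abcb11, an FXR target, overlapped between the groups at 11.33, 11.15 and 11.36 in TLR3-/- livers and 11.18, 11.21 and 11.27 in TLR3wt livers.

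**Figure D3:**
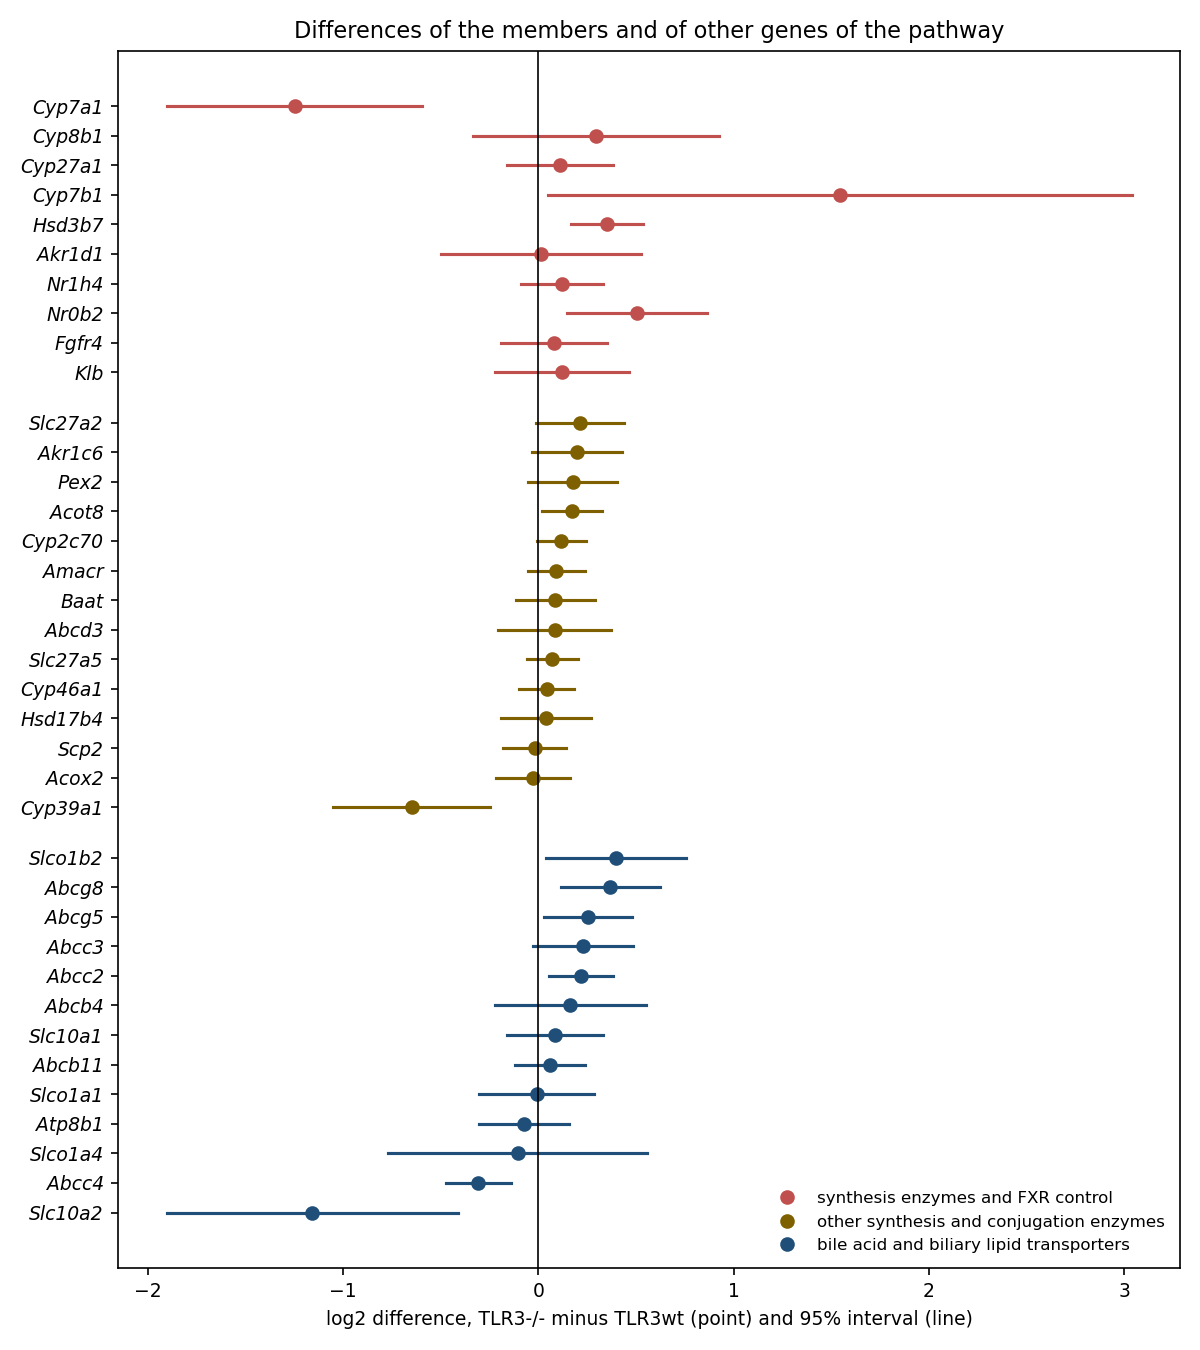
Log2 difference, TLR3-/- minus TLR3wt, with its 95% interval for the 10 genes (red), 14 further synthesis and conjugation enzymes (brown) and 13 transporters (blue). Cyp7a1 at -1.25, Slc10a2 at -1.16 and Cyp39a1 at -0.65 lie left of 0 with intervals that do not reach it, and Cyp7b1 at 1.54 has the widest interval.

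Other targets of FXR had a small median difference. Of 13 such genes, 8 were above the floor, 6 with a higher and 2 with a lower TLR3-/- mean (median log2 difference 0.08), with 0 at an unadjusted p under 0.05 in limma, where 15.7% of all genes tested met that limit, and 0 after adjustment. The log2 differences were 0.12 for Fetub, a liver-secreted protease inhibitor, 0.11 for Mafg, a transcriptional repressor of bile acid synthesis, and -0.17 for Sdc1, a heparan sulphate proteoglycan. The exporter genes Slc51a and Slc51b and Fgf15 were at the floor in all 6 livers, Fgf15 being a hormone of the ileum in mice.

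Among genes of the FGF receptor route the feedback inhibitor Spry4 stood out. Spry4 had 5.65, 5.42 and 5.66 in TLR3-/- livers, against 5, 5.10 and 5 in TLR3wt livers, of which 2 were at the floor. The log2 difference was 0.54 (limma adjusted p = 0.0994), a value that the floor makes smaller. Of the 18 genes in this list, 12 were above the floor, 9 with a higher and 3 with a lower TLR3-/- mean (median log2 difference 0.05), and 0 passed. Fgf21, a fasting-induced hormone that also uses Klb, had 5, 5.06 and 5 in TLR3-/- livers, against 5.35, 5.64 and 6.10 in TLR3wt livers, and Mapk9, a kinase of the JNK family, had a log2 difference of 0.20.

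Of 18 other regulators of Cyp7a1 and Cyp8b1, 15 were above the floor, 9 with a higher and 6 with a lower TLR3-/- mean (median log2 difference 0.11), and 0 passed the limma test. Nr1i3, the gene of the xenobiotic receptor CAR, had 9.35, 9.56 and 9.29 in TLR3-/- livers, against 8.75, 8.94 and 8.74 in TLR3wt livers (log2 difference 0.59, 95% interval 0.36 to 0.82, limma adjusted p = 0.111). Hnf4a, a hepatocyte activator of Cyp7a1 and Cyp8b1, had 9.66, 9.86 and 9.74 in TLR3-/- livers, against 9.93, 10.14 and 9.99 in TLR3wt livers (log2 difference -0.26, limma adjusted p = 0.242). Neither pair of groups overlapped. Klf15, a glucocorticoid-inducible factor, had a log2 difference of -0.35. Of 11 targets of LXR, the oxysterol receptor, 8 had a higher and 3 a lower TLR3-/- mean (median log2 difference 0.05, 0 passed), with Abcg8 at 0.37, Abcg5 at 0.25 and Abca1, a cholesterol exporter, at -0.17.

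The genes whose profile over the 6 arrays lay nearest to that of Cyp7a1, among 10347 genes and by root mean square distance after centring each on its own mean, were Tcim (0.259), Dusp1 (0.264), Slc39a4 (0.283), Vaultrc5 (0.290) and Alas1 (0.291), all distances on the log2 scale over the same 6 arrays. Alas1, the first enzyme of haem synthesis, had 9.65, 9.14 and 10.24 in TLR3-/- livers, against 11.32, 11.43 and 9.86 in TLR3wt livers. As with Cyp7a1, TLR3-/- replicate 2 and TLR3wt replicate 3 were the lowest of their groups, although the Alas1 groups overlapped. Nearest to Nr0b2 were 2810459M11Rik (0.073), Fahd1 (0.074), Hes1 (0.084), Mir15a (0.086) and Bcat2 (0.094).

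Markers of other cell types and states were read beside these values. Of 18 macrophage and Kupffer cell markers, 16 were above the floor and 15 had a lower TLR3-/- mean (median log2 difference -0.79, 0 passed). Their summed log2 signal was 101.5 to 111.0 in TLR3-/- livers and 115.4 to 122.5 in TLR3wt livers, with Itgam and Cd14 at the floor in all 6. The Kupffer cell receptor gene Clec4f had 7.94, 7.54 and 8.09 in TLR3-/- livers, against 8.44, 8.69 and 8.51 in TLR3wt livers, and Timd4, Adgre1 and Marco had log2 differences of -0.90, -1.00 and -1.08. Of 6 cytokine genes, 3 were above the floor, 1 with a higher and 2 with a lower TLR3-/- mean (median log2 difference -0.33, 0 passed): Il1b, at the floor in every TLR3-/- liver and at 5.59, 5.71 and 6.24 in TLR3wt livers, was at least 1.80-fold lower, and Tgfb1 and Il18 had log2 differences of -0.33 and 0.13. Groups did not overlap for 14 of the 16 macrophage markers, Il1b and Tgfb1, all lower in TLR3-/- livers, and the Il18 groups overlapped. Over all genes tested, 7.62% had groups apart and lower in TLR3-/- livers. The part of macrophages or of these cytokines in the difference of Cyp7a1 was not tested.

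Hepatocyte markers went both ways. The summed signal of 12 hepatocyte markers was 145.2 to 145.5 in TLR3-/- livers and 145.4 to 145.5 in TLR3wt livers, with 5 higher and 7 lower (median log2 difference -0.01, 0 passed). The groups did not overlap in 4 of the 12, 2 higher and 2 lower, where 15.1% and 7.62% of all genes tested did so. The log2 differences of these 4 were -0.26 for Hnf4a (95% interval -0.46 to -0.07), -0.10 for Apoa1, 0.13 for Hpd and 0.10 for Serpina1c. Cyp7a1 is known from cells around the central vein, and of 11 genes of that zone 9 had a higher and 2 a lower TLR3-/- mean (median log2 difference 0.17, 0 passed), among them Tbx3, Cyp2e1 and Lect2 at 0.74, 0.25 and 0.43. Of 9 genes of the portal zone 3 had a higher and 6 a lower mean (median -0.01, 0 passed), with Pck1, Arg1 and Cdh1 at -0.61, -0.25 and -0.52. Of the bile duct markers Krt7, Krt19, Epcam, Cftr, Sctr, Muc1 and Cldn7 were at the floor in all 6 livers, which leaves Slc10a2 and Sox9 (log2 difference 0.19) as the 2 measured, with a summed signal of 11.7 to 12.2 in TLR3-/- and 12.0 to 14.1 in TLR3wt livers.

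**Figure D4:**
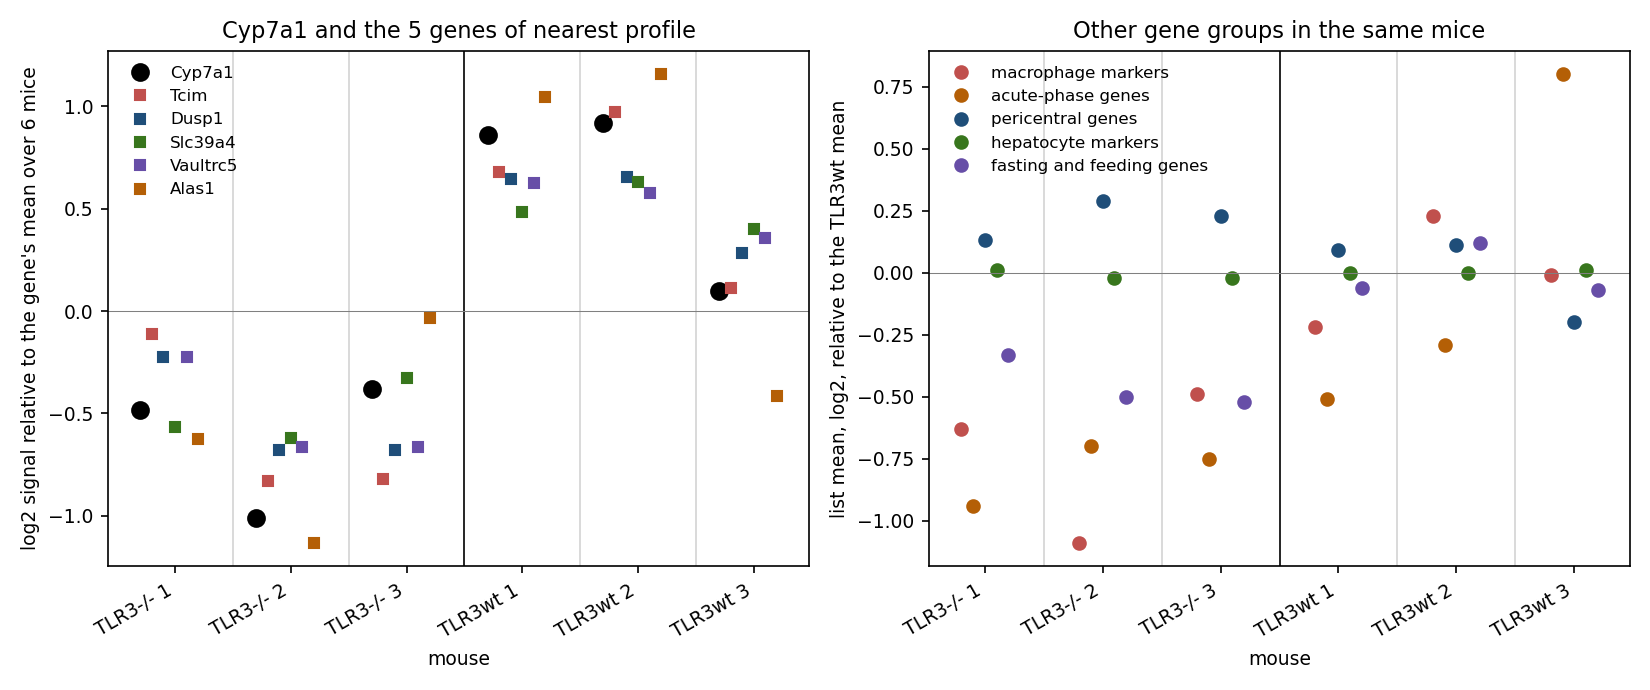
Left, log2 signal of Cyp7a1 (black) and of the 5 genes with the nearest profile in each mouse, relative to each gene's mean over 6 mice; right, means of 5 gene lists in each mouse, relative to the TLR3wt mean. TLR3-/- mice are left of the black line; acute-phase genes reach 0.80 in TLR3wt replicate 3, macrophage markers reach -1.09 in TLR3-/- replicate 2, and hepatocyte markers stay between -0.02 and 0.01.

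Daily rhythm and feeding are known to move Cyp7a1, and genes of both were listed for that reason. Of 19 clock genes 14 were above the floor, 9 with a higher and 5 with a lower TLR3-/- mean (median log2 difference 0.15, 0 passed). Per1 was at the floor in every TLR3-/- liver and at 5.54, 6.00 and 5.37 in TLR3wt livers, at least 1.55-fold lower, while Hlf and Cry2 had log2 differences of 0.36 and 0.51. Of 13 measured genes of fasting and feeding, 10 had a lower and 3 a higher TLR3-/- mean (median log2 difference -0.39). Igfbp1, which insulin represses, passed, with 7.95, 6.92 and 7.85 in TLR3-/- livers, against 10.12, 10.19 and 10.05 in TLR3wt livers (limma adjusted p = 0.0465), a call that was lost in 11 of 16 alternative fits. The part of the hour of collection or of feeding in the difference of Cyp7a1 was not tested.

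Markers of the remaining cell types gave small medians. Of 12 liver endothelial markers 5 had a higher and 7 a lower TLR3-/- mean (median log2 difference -0.03, summed signal 84.1 to 87.6 in TLR3-/- and 85.4 to 88.4 in TLR3wt livers), with Pecam1, Lyve1 and Fcgr2b at -0.24, -0.56 and 0.29. Of 11 stellate cell markers 5 were higher and 6 lower (median -0.06, summed signal 70.9 to 71.7 in TLR3-/- and 71.3 to 73.7 in TLR3wt livers), and the collagen genes Col3a1, Col1a1 and Col1a2 were at -0.55, -0.49 and -0.28. Among enterocyte markers, 7 of 10 were at the floor in all livers, the ileal bile acid binding protein gene Fabp6 and Vil1 included, and Cdx1, Fabp2 and Apoa4 had log2 differences of -0.11, 0.27 and -0.19. No member of these 3 lists passed the limma test. Groups lay apart and lower in TLR3-/- livers for 2 endothelial markers, Pecam1 and Lyve1, and for the 3 collagen genes. In these lists 0 markers lay apart and higher. Over all genes tested, 7.62% lay apart and lower and 15.1% apart and higher.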

How the data were processed

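Liver RNA of 6 mice was measured on 1 array each. The deposited values are log2 RMA signals, for which the authors used Affymetrix Expression Console according to the submitters' processing notes; what set the floor of 5 is not given there. The table held 35557 probe sets and 0 columns of other samples. Genes were named from the array annotation, updated to assembly GRCm38.p6 (99.6% of identifiers matched); 21789 probe sets had 1 symbol, 1621 several and 12147 none, and only the first kind named a gene.

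The group comparison used lmFit and eBayes of limma 3.58.1 under R 4.3.3 (two-sided, Benjamini-Hochberg over all tested probe sets, threshold 0.05), leaving out 18918 probe sets that stood at the floor throughout and so have no spread. Differences are TLR3-/- minus TLR3wt. Folds are 2 to the power of the log2 difference, and the number of arrays limits their precision. A value at the floor makes a difference too small, and a group wholly at 5 gives a bound against 5. The 10 genes, the other lists and the filter were chosen with earlier results of these data known. The lists covered other bile acid enzymes, transporters, other regulators, FXR, FGF receptor and LXR genes, cytokines, clock, feeding and zonation genes and markers of hepatocytes, bile ducts, macrophages, endothelium, stellate cells and enterocytes. The text names the 10 genes, from each list its called members or, with none, the 3 of lowest unadjusted p, and the 5 nearest profiles of Cyp7a1 and Nr0b2. Alb, Baat, Abcb11, Clec4f, Saa2, Serpina1c, Pltp and genes named for standing at the floor were added after their values were seen.

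Simulated data for this comparison held 16638 probe sets with independent normal noise, of which 200 were given a known shift. Shifts went only to probe sets whose mean log2 signal stood more than 1 above the floor. In that setting limma recovered 43.2%, 86.0% and 100% of log2 changes of 0.5, 1 and 2, with 6 false among 152 calls. Noise shared between probe sets was not simulated, so these shares need not hold for the measured livers. Alternatives changed the normalisation, the filter, the variance model and the mice used.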

Additional observations from a re-analysis of the deposited data

How the results depend on the processing

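No fit called any of the 10 genes: over 16 alternatives their lowest limma adjusted p was 0.107. Of the 160 values of the 10 genes under these alternatives 8 had the opposite sign, 7 for Akr1d1 and 1 for Klb. Akr1d1 was at -0.0206 after quantile normalisation again, -0.0177 with arrays centred on their medians and -0.0343 with array weights, and between -0.1908 and 0.2345 without 1 mouse; Klb was between -0.0173 and 0.21 without 1 mouse. Genes with a higher TLR3-/- mean numbered 7 to 9. Groups that did not overlap numbered 4 or 5 of the 10 without 1 mouse, where 26.8% to 33.2% of tested probe sets did so, an alternative chosen after seeing the data. The count over the whole array, 31 as reported, was 35 with array weights and with trend and robust eBayes, 9 after quantile normalisation again, 14 with centred arrays, 18 when only probe sets never at the floor were kept, 0 with all probe sets in the fit (2018 at an unadjusted p under 0.05 in limma), 1 with 1-symbol probe sets, 3 with identical probe sets entered once, 2 with an ordinary pooled-variance test, and 0 to 13 without 1 mouse. The causes were not tested. Deviations of same-numbered mice from their group means correlated at 0.0477, -0.0119 and -0.0633, and those of differently numbered mice at -0.121 to 0.139. With 3 mice a group these values cannot decide whether replicate numbers pair the mice. The replicate block gave 4 calls in place of 31, again without any of the 10 genes. Of the 46 other genes followed, none changed sign, and Igfbp1 was the 1 that lost its call, in 11 fits. Each of the 10 genes had 1 probe set with 1 symbol, so the planned comparison with a second probe set could not be run. Signals near the floor, as for Spry4, Per1 and Il1b, limit what a difference can show.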

Other observations

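Onecut1, the gene of a hepatocyte factor that binds the Cyp7a1 promoter, varied widely among mice within both groups and was singled out after its values were seen. It had 8.14, 6.25 and 7.82 in TLR3-/- livers, against 8.80, 8.36 and 6.37 in TLR3wt livers (log2 difference -0.44, 95% interval -2.29 to 1.41). TLR3-/- replicate 2 and TLR3wt replicate 3 had the lowest Onecut1 of their groups, as they had for Cyp7a1 (7.54 and 8.65). Alas1 had the same lowest mice (9.14 and 9.86), but it was named for a profile near that of Cyp7a1. Its order therefore follows from that choice, and Onecut1 was picked by its values. With 3 mice a group this order was not tested.

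Prox1, a corepressor of Cyp7a1 transcription, had 8.30, 8.69 and 8.79 in TLR3-/- livers, against 7.86, 7.82 and 8.51 in TLR3wt livers (log2 difference 0.53, 95% interval -0.0038 to 1.06, limma adjusted p = 0.348). The Prox1 groups overlapped. Slco1b2, a basolateral uptake carrier for bile acids, had 10.94, 11.06 and 10.88 in TLR3-/- livers, against 10.75, 10.71 and 10.23 in TLR3wt livers, where TLR3wt replicate 3 was again the lowest. Both were named after their values were seen.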
